A study of Mus musculus with 16 samples.

Results

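Poised regulatory regions were taken as the H3K4me1 regions that shared at least 1 base with an H3K27me3 region and no base with an H3K4me3 region. There were 2987 such regions among 114913 H3K4me1 regions (2.60%). They were drawn from 5430 H3K4me1 regions that touched H3K27me3, of which the other 2443 also touched H3K4me3. The marks were mapped by ChIP-seq, sequencing of the DNA that an antibody against a histone mark pulls down with crosslinked chromatin. The cells were ER-Hoxb8 cells, mouse C57BL/6 myeloid progenitors held in a dividing, undifferentiated state by an estrogen-regulated Hoxb8 fusion protein. The study asked how the ETS transcription factor ERG and a form of it with a substituted proline act on the chromatin of these cells. Lines were made by stable lentiviral expression of human P199L-ERG, of human WT-ERG, or of the empty vector. All 3 lines therefore carried the ER-Hoxb8 fusion, and each line is a cell culture that was sorted for the GFP marker of the vector rather than a set of animals. Each line had 1 library per mark, so the comparisons below are between libraries, have no replicate error and carry no test. The 95% intervals given for single regions are exact Clopper-Pearson intervals of the counts and say nothing of error beyond counting.

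H3K4me1 is placed by the methyltransferases MLL3 and MLL4 and marks enhancers and the flanks of promoters. H3K27me3 is placed by Polycomb repressive complex 2, which settles on unmethylated CpG islands of genes that are silent in a cell, above all those of developmental regulators. Enhancers and promoters with H3K4me1 and H3K27me3 but without acetylation are called poised, and the gain of H3K27ac, placed by p300 and CBP on the same lysine that Polycomb methylates, marks their activation. The libraries were made from many cells, so that marks on 1 nucleosome, on the 2 alleles of a cell or in different cells cannot be told apart.

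The sequence of these regions was rich in CG dinucleotides, the target of CpG methylation and the main feature of CpG islands. The central 300 bases of a poised region held a median of 7 CG, and 1128 regions (37.8%) held 10 or more. In all H3K4me1 regions the median was 3 and the share with 10 or more was 9.31%. Windows of 300 bases without an annotated exon are printed for 7 regions that the results below turn on, read on the plus strand of mm10 (GRCm38), with each CG in capitals. The first 5 come from regions with more H3K4me1 in the WT-ERG line than in either other line: the start of Ret (chr6:118196753-118197052, 39 CG), the start of Cdh22 (chr2:165234252-165234551, 38 CG), a distal region of Meis1 (chr11:18871541-18871840, 24 CG), the start of Hoxc9 (chr15:102976727-102977026, 15 CG) and the start of the longest Erg transcript (chr16:95585857-95586156, 12 CG). The last 2 are CG-poor: a region in an intron of Sdc1 where H3K4me1 was lower in both ERG lines (chr12:8776709-8777008, 1 CG), and an intergenic region of Slc30a1 with the largest log2 ratio between WT-ERG and empty vector that the naming rule found (chr1:191930854-191931153, 1 CG).
Ret: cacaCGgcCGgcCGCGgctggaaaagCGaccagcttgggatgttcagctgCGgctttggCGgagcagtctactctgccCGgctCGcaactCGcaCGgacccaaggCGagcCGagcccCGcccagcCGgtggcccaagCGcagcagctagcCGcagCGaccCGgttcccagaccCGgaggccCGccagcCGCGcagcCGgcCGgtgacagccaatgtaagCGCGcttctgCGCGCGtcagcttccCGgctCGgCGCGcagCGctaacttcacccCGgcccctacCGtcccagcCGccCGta
Cdh22: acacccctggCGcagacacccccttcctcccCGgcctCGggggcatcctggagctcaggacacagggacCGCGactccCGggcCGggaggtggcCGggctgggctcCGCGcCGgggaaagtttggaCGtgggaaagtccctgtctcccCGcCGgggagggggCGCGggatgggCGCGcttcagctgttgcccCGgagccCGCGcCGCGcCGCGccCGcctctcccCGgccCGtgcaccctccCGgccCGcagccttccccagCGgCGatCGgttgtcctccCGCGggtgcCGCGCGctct
Meis1: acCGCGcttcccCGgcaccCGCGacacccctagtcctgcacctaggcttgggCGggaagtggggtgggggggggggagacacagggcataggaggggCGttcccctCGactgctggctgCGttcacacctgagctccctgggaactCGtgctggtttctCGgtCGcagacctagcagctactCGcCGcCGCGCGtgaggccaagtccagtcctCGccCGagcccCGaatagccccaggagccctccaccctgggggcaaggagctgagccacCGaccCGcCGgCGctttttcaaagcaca
Hoxc9: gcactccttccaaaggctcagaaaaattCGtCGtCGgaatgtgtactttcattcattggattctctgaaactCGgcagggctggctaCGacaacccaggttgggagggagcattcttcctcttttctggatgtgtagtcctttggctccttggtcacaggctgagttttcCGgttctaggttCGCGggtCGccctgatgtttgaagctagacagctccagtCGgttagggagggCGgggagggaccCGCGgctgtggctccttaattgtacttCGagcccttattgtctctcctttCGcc
Erg: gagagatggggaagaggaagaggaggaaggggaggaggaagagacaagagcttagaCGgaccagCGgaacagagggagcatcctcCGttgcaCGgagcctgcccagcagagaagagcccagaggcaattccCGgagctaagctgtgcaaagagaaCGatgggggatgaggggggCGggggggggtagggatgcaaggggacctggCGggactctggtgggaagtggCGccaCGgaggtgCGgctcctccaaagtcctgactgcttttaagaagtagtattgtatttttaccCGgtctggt
Sdc1: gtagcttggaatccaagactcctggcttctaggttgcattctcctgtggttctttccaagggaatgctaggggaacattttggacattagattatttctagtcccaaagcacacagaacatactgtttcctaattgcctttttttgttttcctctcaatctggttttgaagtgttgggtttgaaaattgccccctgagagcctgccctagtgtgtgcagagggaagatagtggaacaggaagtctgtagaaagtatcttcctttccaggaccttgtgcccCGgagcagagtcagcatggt
Slc30a1: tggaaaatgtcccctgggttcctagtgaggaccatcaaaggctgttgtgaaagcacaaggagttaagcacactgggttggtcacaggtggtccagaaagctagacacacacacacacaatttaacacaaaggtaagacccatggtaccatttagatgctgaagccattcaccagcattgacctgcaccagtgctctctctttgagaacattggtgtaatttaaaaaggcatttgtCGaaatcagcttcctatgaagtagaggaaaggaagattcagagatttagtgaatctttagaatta

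The 9 libraries of the 3 marks compared here held 14508786 to 17144801 reads in H3K4me1 regions, 768125 to 980145 in H3K27me3 regions and 13980539 to 16230439 in H3K27ac regions. The deposited normalized reads are the read counts times a factor per library, and they are the unit of every level below. The label of the cells was checked with the markers of granulocyte-monocyte progenitors (among them Mpo, Elane, Cebpa and Kit): 12 of 12 genes had an H3K27ac region and 10 of 12 an H3K4me3 region over the gene start. An H3K27ac region was also assigned to 4 of 4 B lymphoid, 4 of 4 T lymphoid, 2 of 3 erythroid and 1 of 4 endothelial markers, so its presence alone did not separate these cell types. No endothelial marker (Cdh5, Tek, Tie1, Kdr) and no T lymphoid marker (Cd3e, Cd3d, Cd8a, Tcf7) had H3K4me3 over its start, against 2 of 4 B lymphoid markers and 0 of 3 erythroid markers. The median summed H3K27ac was 6963 normalized reads for the progenitor markers, and 993, 541, 501 and 0 for the B lymphoid, T lymphoid, erythroid and endothelial markers in that order.

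Most poised regions lay inside H3K27me3 rather than at its edge. The median region had 96.8% of its length covered by H3K27me3, 1439 (48.2%) were covered whole, and 180 were covered over less than 10% of their length. They touched 2710 of the 14721 H3K27me3 regions, of which 2441 held 1 poised region and 269 held more, up to 6. These 2710 H3K27me3 regions were long, with a median of 1606.5 bases, against 883 bases over all H3K27me3 regions. Of the poised regions, 589 (19.7%) lay in H3K27me3 domains of at least 5000 bases. That length was reached by 367 of the 2710 H3K27me3 regions at poised regions and by 679 (4.61%) of all H3K27me3 regions. The nearest H3K4me3 region was a median of 11131 bases away, it was within 1000 bases for 68 regions (2.28%), and in 365 cases (12.2%) the H3K27me3 domain itself reached an H3K4me3 region.

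Poised regions lay closer to gene starts and were richer in GC than H3K4me1 regions that had neither H3K27me3 nor H3K4me3, the 80708 regions used below as the unmarked comparison. Their median distance to an annotated gene start was 5002 bases, against 18185 in the unmarked regions, and 851 (28.5%) lay within 1 kb of a start, against 3.92%. Introns held 924 (30.9%, against 56.2%), intergenic sequence held 989 (33.1%, against 33.8%) and exons held 223 (7.47%, against 6.05%). The median GC content was 55.2% in poised and 48.1% in unmarked regions, and the ratio of observed to expected CpG was above 0.6, the level of a CpG island, in 24.4% and 2.31%. Repeats covered a median of 9.63% of a poised and 19.5% of an unmarked region, and the lengths were alike at 731 and 750 bases. By chromosome the share of H3K4me1 regions that were poised was 4.68% on chromosome 17 and 4.06% on chromosome 11, which held the most (339), and 0.367% on the X chromosome, with 8 of 2177 regions.

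The letters of transcription factor motifs were counted on both strands of the central 300 bases. The GC-rich ETS motif CCGGAAG was found in 3.65% of poised and 1.83% of all H3K4me1 regions, and the ETS motif AGGAAGT in 9.88% and 12.6%. The GATA motif AGATAAG was found in 2.38% of poised and 3.56% of all regions, the RUNX motif TGTGGTT in 6.70% and 8.50%, and the C/EBP motifs TTGCNNCAA or TTGCNNAAT in 4.22% and 5.80%. These shares differ in base composition as the regions do, and a match of letters is not a bound site.

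H3K27me3, the Polycomb mark, was at nearly the same level in the 3 lines on the deposited scale. On this scale the median log2 ratio over all H3K27me3 regions was 0.01 for WT-ERG over empty vector. It was -0.01 for P199L-ERG over empty vector and -0.01 for P199L-ERG over WT-ERG. The basis of the factors is not given, so a change shared by all H3K27me3 regions could not be told from the scaling. The H3K27me3 regions that touched poised regions had medians of 36.9 normalized reads per kb in the P199L-ERG line, 35.9 in the WT-ERG line and 37.8 in the empty vector line. The other H3K27me3 regions had 32.6, 33.2 and 32.8 per kb in the same lines, so the poised ones were slightly denser in each. Together they held 35.3%, 34.8% and 35.4% of the normalized H3K27me3 reads of the P199L-ERG, WT-ERG and empty vector lines.

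A region was counted as higher or lower where its normalized reads differed by at least 1.5-fold after a pseudocount of 10% of the median level of the mark. Each poised region was given the H3K27me3 region with which it shared most bases. In H3K27me3 between WT-ERG and empty vector, 180 poised regions were higher and 235 lower, against 12.6% higher and 13% lower over all H3K27me3 regions. Counted as 2710 separate H3K27me3 regions, 182 (6.72%) were higher and 246 (9.08%) lower, with a median log2 ratio of -0.05. Scaling the libraries to their total reads in H3K27me3 regions turned the split at poised regions to 213 higher and 192 lower. Between P199L-ERG and empty vector 133 poised regions were higher and 191 lower, with 9.62% and 10.8% over all H3K27me3 regions, and the separate regions had a median of -0.01. Between P199L-ERG and WT-ERG 129 were higher and 158 lower, with 8.53% and 11% over all H3K27me3 regions, and a median of 0.04 over the separate regions. This last split turned to 150 higher and 105 lower with the GC adjustment, to 58 and 24 without the 25% of poised regions with the least signal, and to 42 and 13 with H3K27me3 regions called in at least 2 lines. The 3 pairs share libraries and are not independent of each other. In all pairs the shares at poised regions were below those over all H3K27me3 regions, which are shorter.

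Long domains gave the most precise values. None of the 367 domains of at least 5000 bases that held poised regions differed by 1.5-fold in any pair. Their log2 ratios ran from -0.45 to 0.45 between WT-ERG and empty vector, from -0.45 to 0.45 between P199L-ERG and empty vector and from -0.32 to 0.38 between P199L-ERG and WT-ERG. The domain over Hoxc9, Hoxc10 and Hoxc8 (chr15:102944824-102993656), 1 of the 4 clusters of homeobox genes that set body position, held 2407 normalized H3K27me3 reads in the P199L-ERG line, 2352 in the WT-ERG line and 2509 in the empty vector line. The raw counts behind these were 2178, 2823 and 2852, and P199L-ERG over WT-ERG had a log2 ratio of 0.03 (-0.05 to 0.11). Its neighbor over Hoxc5 (chr15:102994369-103045304) held 2439, 2264 and 2368 in the same lines.

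The authors' peak calls differed between the lines more than the signal did. Of the 2710 H3K27me3 regions at poised regions, 1055 (38.9%) were called in all 3 lines, against 19.2% of all H3K27me3 regions, and 757 (27.9%) were called in the WT-ERG line alone. The regions called in all 3 lines had a median length of 3770 bases and medians of 160, 149 and 161 normalized reads in the P199L-ERG, WT-ERG and empty vector lines. Those called in the WT-ERG line alone had medians of 23.2, 27.5 and 21.1, on 21, 33 and 24 reads. Over all H3K27me3 regions 4080 were called in P199L-ERG, 11508 in WT-ERG and 7237 in empty vector, on 768125, 980145 and 971058 reads. The P199L-ERG library was the lowest in both, while WT-ERG and empty vector differed in calls at nearly equal reads.

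H3K27me3 regions with the largest ratios were small. Those named here had some of the largest ratios among regions in the upper 50% by signal, and some regions of less signal had larger ones. The region between Nxph4, a secreted neurexin ligand, and Lrp1, an endocytic receptor, held 49.7 normalized reads in the P199L-ERG line, 62.5 in WT-ERG and 29.0 in empty vector, with a log2 ratio of WT-ERG to empty vector of 1.04 (0.92 adjusted for GC content, as described below). The region between Fli1 and Ets1, both ETS factors like ERG, held 39.8, 32.5 and 62.5 in the same order of lines (log2 ratio of WT-ERG to empty vector -0.89, and -0.96 adjusted). A region near Ccr6, a chemokine receptor, and Mpc1, the mitochondrial pyruvate carrier, held 63.0 in P199L-ERG, 35 in WT-ERG and 30.8 in empty vector, which gave a log2 ratio of P199L-ERG to empty vector of 0.97 (0.90 adjusted). All rested on 33 to 75 reads a library.

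**Figure D1:**
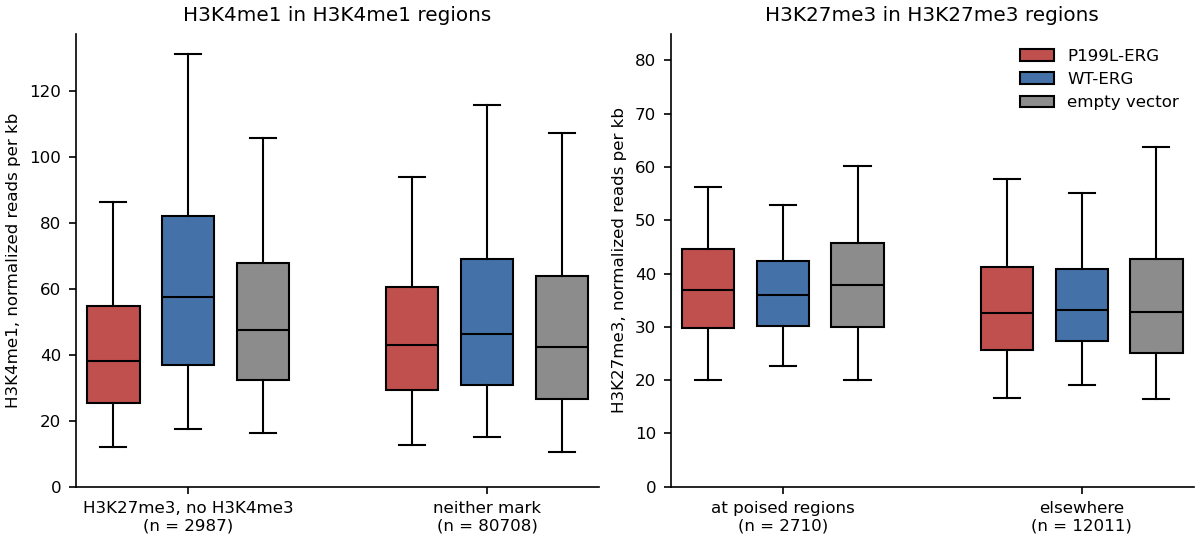
Boxes give the median and quartiles, and whiskers the 5th and 95th percentiles over regions, of normalized reads per kb in the 3 lines. Left, H3K4me1 in the 2987 poised regions and in the 80708 regions with neither other mark: the poised regions have medians of 38.1 in P199L-ERG, 57.4 in WT-ERG and 47.6 in empty vector. Right, H3K27me3 in the 2710 H3K27me3 regions at poised regions and in the other H3K27me3 regions: the 3 lines lie within 35.9 to 37.8 at poised regions.

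H3K4me1 differed between the lines more often than H3K27me3. Its median level in poised regions was 38.1 normalized reads per kb in P199L-ERG, 57.4 in WT-ERG and 47.6 in empty vector, whereas the unmarked regions had 42.9, 46.4 and 42.5. The WT-ERG line was thus the highest and the P199L-ERG line the lowest in poised regions. The median raw count behind a poised region was 27, 33 and 32 reads in the P199L-ERG, WT-ERG and empty vector lines.

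Between WT-ERG and empty vector the median log2 ratio of H3K4me1 over the poised regions was 0.19, with 1003 regions (33.6%) higher and 548 (18.3%) lower. Over all H3K4me1 regions 25.3% were higher and 17.2% lower. The counting interval lay wholly above 0 for 829 of the regions that were higher and wholly below 0 for 391 of those that were lower. Over all H3K4me1 regions it did so for 24771 of 29130 that were higher and 14004 of 19820 that were lower. Between P199L-ERG and empty vector the median was -0.29, with 162 regions (5.42%) higher and 832 (27.9%) lower, against 12.8% and 12.5% over all H3K4me1 regions. Between P199L-ERG and WT-ERG it was -0.41, with 329 (11.0%) higher and 1308 (43.8%) lower, against 14.5% and 23.4%. On the deposited scale less H3K4me1 in P199L-ERG than WT-ERG was thus the most frequent difference at poised regions. The counting interval lay below 0 for 1169 of these 1308 regions and, over all H3K4me1 regions, for a like part, 23342 of 26933.

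Taking the 3 lines together, WT-ERG exceeded both other lines by 1.5-fold at 883 poised regions and fell below both at 231. P199L-ERG was below both others at 516 and above both at 46, and 808 regions differed in none of the 3 pairs. No such counts were made over all H3K4me1 regions, so these are not read as particular to poised regions. By the peak calls, which rest on the same reads, 1275 regions (42.7%) were called for H3K4me1 in every line. A further 638 (21.4%, against 15.1% of unmarked regions) were called in WT-ERG alone. Those 638 had a median GC content of 62.7%. Their medians of 7.45, 25.4 and 10.5 normalized reads in the P199L-ERG, WT-ERG and empty vector lines follow in part from that choice. Only 257 poised regions were called in empty vector alone and 184 in P199L-ERG alone. A region called in 1 line alone entered through that line, which by itself favors higher values there. The counts of higher and lower regions above, with WT-ERG often the highest, therefore follow in part from how regions entered the set.

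The differences in H3K4me1 moved with base composition, in poised and unmarked regions alike. In poised regions of 50 to 55% GC (n = 878) the median log2 ratio was -0.18 for WT-ERG over empty vector, -0.18 for P199L-ERG over empty vector and 0.05 for P199L-ERG over WT-ERG. In poised regions of 65% GC or more (n = 480) the 3 medians were 0.96, -0.53 and -1.47. The unmarked regions of 65% GC or more had 1.10, -0.43 and -1.49, and those of 50 to 55% GC had -0.27, -0.17 and 0.12. For WT-ERG over empty vector and P199L-ERG over WT-ERG, poised and unmarked regions stood furthest apart at 55 to 60% GC. Their medians there were 0.02 and -0.17 for WT-ERG over empty vector and -0.41 and -0.22 for P199L-ERG over WT-ERG. For P199L-ERG over empty vector they were closest in this class, at -0.37 and -0.38.

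**Figure D2:**
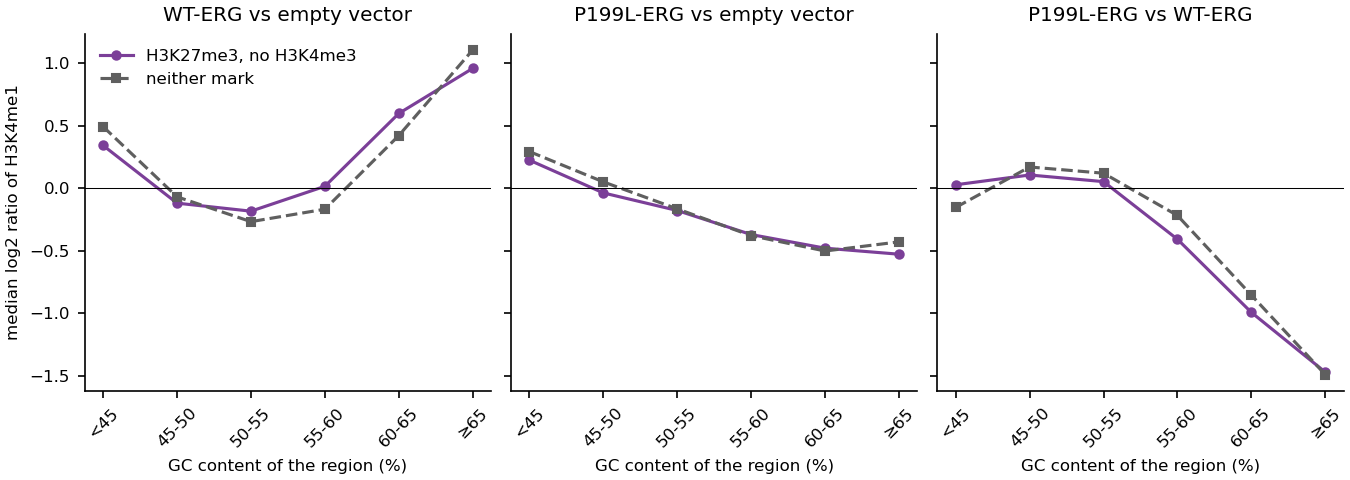
Median log2 ratio of H3K4me1 (y axis) in classes of GC content (x axis, percent of bases) for the 3 pairs of lines, in poised regions (solid, circles) and in H3K4me1 regions with neither H3K27me3 nor H3K4me3 (dashed, squares). Both curves bend with GC content: at 65% or more the poised regions reach 0.96, -0.53 and -1.47, and the unmarked regions 1.10, -0.43 and -1.49.

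Each region was next set against the H3K4me1 regions in its group of GC content and signal. The median log2 ratio of poised regions then became 0.09 for WT-ERG over empty vector, 0.01 for P199L-ERG over empty vector and -0.08 for P199L-ERG over WT-ERG. On this scale 709 regions (23.7%) were higher and 510 (17.1%) lower between WT-ERG and empty vector, against 19.5% and 16.8% over all H3K4me1 regions. Between P199L-ERG and empty vector 326 (10.9%) were higher and 318 (10.6%) lower, against 9.64% and 9.96%. Between P199L-ERG and WT-ERG 459 (15.4%) were higher and 651 (21.8%) lower, against 14.2% and 18.1%. More H3K4me1 in WT-ERG than in empty vector was then the most frequent difference, in poised regions as over all H3K4me1 regions. WT-ERG then exceeded both other lines at 447 regions and P199L-ERG fell below both at 121, again without such counts over all H3K4me1 regions. The 20 GC groups held equal numbers of regions, and 52.0% was the upper quartile of GC content over all H3K4me1 regions. The groups richest in GC therefore spanned a wide range, and dependence on GC content within a group was not removed. Differences in the libraries that depend on GC content and differences of the cells at GC-rich regions cannot be told apart with 1 library a line, so the adjusted value is given beside each log2 ratio of H3K4me1 of a region named below.

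The lines stood far apart at CpG-rich sequence, poised or not. The 730 poised regions with a ratio of observed to expected CpG above 0.6 had median H3K4me1 levels of 25.4 normalized reads per kb in P199L-ERG, 81.5 in WT-ERG and 39.4 in empty vector. The other 2257 had 43.1, 49.4 and 50.4. Of the CpG-rich regions 76.0% were higher and 1.37% lower in WT-ERG than in empty vector, and 93.6% had less in P199L-ERG than WT-ERG. Their median log2 ratios were 0.92, -0.48 and -1.40 for WT-ERG over empty vector, P199L-ERG over empty vector and P199L-ERG over WT-ERG, and after the GC adjustment 0.39, 0.01 and -0.39. The 1863 CpG-rich regions among the unmarked ones had ratios of 0.90, -0.39 and -1.27, and 80.6% of them were lower between P199L-ERG and WT-ERG. After the GC adjustment these were 0.60, -0.05 and -0.62, so that on this scale the unmarked CpG-rich regions stood further from 0 than the poised ones in all 3 pairs. In H3K27me3 the CpG-rich poised regions had medians of -0.10, -0.01 and 0.07 in the 3 pairs.

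Poised regions within 1 kb of a gene start, with a median GC content of 62.7%, had a median log2 ratio of 0.68 for WT-ERG over empty vector, with 469 of 851 higher and 56 lower. For P199L-ERG over WT-ERG they had -1.14, with 26 higher and 613 lower. After the GC adjustment these medians were 0.26 and -0.27. Exonic regions had 0.40 and -0.85 in the same pairs (0.12 and -0.10 adjusted), with 133 of 223 lower between P199L-ERG and WT-ERG. Intronic regions (-0.03 and -0.09) and intergenic regions (-0.08 and -0.05) had medians near 0 in both pairs.

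Regions were named for the size of their log2 ratio only if they had enough signal: the higher level in either line had to lie in the upper 50% of poised regions. By this signal limit the 4 largest decreases of P199L-ERG against WT-ERG lay in GC-rich sequence, 3 of them at gene starts, and WT-ERG was the highest line at each. The same order of lines was seen at Ret. At the start of Ret (chr6:118196662-118197303), the GDNF receptor tyrosine kinase, H3K4me1 was 9.31 normalized reads in P199L-ERG, 50.7 in WT-ERG and 7.98 in empty vector, while the H3K27me3 domain around it held 171, 159 and 143. WT-ERG alone was high, with a log2 ratio to empty vector of 2.16 (1.57 to 3.97; 1.62 after the GC adjustment) and -2.02 (-0.89 adjusted) for P199L-ERG over WT-ERG. Ret is the CG-rich sequence printed first. Kcnc4 (chr3:107459287-107460349), a voltage-gated potassium channel, had 4.66, 61.1 and 11.0 at its start and the largest of these log2 decreases, -2.87 (-5.40 to -2.40; -1.75 adjusted). Fgfr1 (chr8:25518774-25519409), a fibroblast growth factor receptor, had 3.72, 47.3 and 11.0 (P199L-ERG over WT-ERG -2.69, and -1.56 adjusted).

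Mgat5b, a glycosyltransferase of the brain, had 20.5, 133 and 40.9 normalized H3K4me1 reads in P199L-ERG, WT-ERG and empty vector at its start (-2.47, and -1.37 adjusted). An exonic region of Igdcc4, which encodes an immunoglobulin-domain protein of the cell surface, had 19.6, 135 and 56.9 (-2.55, and -1.45 adjusted). These regions had 66.8 to 77.1% GC, as did the starts of Ret, Kcnc4 and Fgfr1. At the start of Cdh22 (chr2:165233401-165235604), a cadherin, H3K4me1 was 95.9, 255 and 126, with a log2 ratio of WT-ERG to empty vector of 0.99 (0.70 to 1.35) that became 0.38 after the GC adjustment. Ntrk3, the receptor of neurotrophin 3, had 103, 240 and 141 at its start, with 0.75 (0.13 adjusted).

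Not every increase lay in GC-rich sequence. An intergenic region between Rd3 and Slc30a1, a zinc exporter (chr1:191930533-191931466, 46.6% GC), had 16.8 normalized H3K4me1 reads in P199L-ERG, 62.3 in WT-ERG and 5.99 in empty vector. Its log2 ratio of WT-ERG to empty vector was 2.69 (2.16 to 4.89) and 2.70 after the adjustment, and the H3K27me3 domain that covered 31.5% of it held 97.2, 102 and 92.4. Ccnjl, a cyclin-like gene, had 83.8, 122 and 27.9 at a region upstream of its start, and Serping1, the C1 inhibitor of complement, had 35.4, 28.8 and 8.98. Both were higher in the 2 ERG lines than in empty vector, with log2 ratios of P199L-ERG to empty vector of 1.45 (1.25 adjusted) and 1.58 (1.39 adjusted).

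The 8 regions named for the largest decreases of an ERG line against empty vector had 42.8 to 58.0% GC. In an intron of Sdc1, the plasma cell and epithelial proteoglycan syndecan 1 (chr12:8776218-8777506, 50.6% GC), H3K4me1 was 69.8 in P199L-ERG, 31.1 in WT-ERG and 127 in empty vector. Here WT-ERG was the lowest, with a log2 ratio to empty vector of -1.89 (-2.68 to -1.42; -1.68 adjusted). The H3K27me3 domain over it held 442, 424 and 324, so that H3K27me3 was higher in both ERG lines, by log2 ratios of 0.45 (0.24 to 0.66) for P199L-ERG and 0.39 (0.19 to 0.59) for WT-ERG, short of 1.5-fold.

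A region in an intron of BC051142, near the butyrophilin-like gene Btnl4, had 32.6, 17.3 and 73.9 normalized H3K4me1 reads in P199L-ERG, WT-ERG and empty vector, with a log2 ratio of WT-ERG to empty vector of -1.86 (-1.87 adjusted). The start of Ptgfr, the receptor of prostaglandin F2 alpha, had 29.8, 31.1 and 95.8, lower in both ERG lines (-1.55 for P199L-ERG and -1.50 for WT-ERG over empty vector, and -1.27 and -1.34 adjusted). In an intron of Rtkn2, the level was 3.72, 16.1 and 35.9, with the largest decrease of P199L-ERG against empty vector among regions past the signal limit (-2.33, and -2.76 adjusted). By the same limit the largest increase of P199L-ERG against WT-ERG was at an intergenic region between Ccdc32 and Chst14, a dermatan sulfotransferase, with 50.3, 16.1 and 29.9 (1.42, and 1.21 adjusted).

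Changes in H3K4me1 and H3K27me3 were close to unrelated across poised regions. Pearson's r between the log2 ratios of both marks was -0.10 for WT-ERG over empty vector, -0.03 for P199L-ERG over empty vector and -0.09 for P199L-ERG over WT-ERG, over 2987 regions of which some share an H3K27me3 region. Between WT-ERG and empty vector 1220 regions were unchanged in both marks by the 1.5-fold limit, and 71 had higher H3K4me1 with lower H3K27me3. The opposite exchange was seen at 54 regions, higher levels of both at 35 and lower levels of both at 39. Between P199L-ERG and WT-ERG, 55 regions had lower H3K4me1 with higher H3K27me3 and 25 the reverse. Between P199L-ERG and empty vector these counts were 28 and 17.

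**Figure D3:**
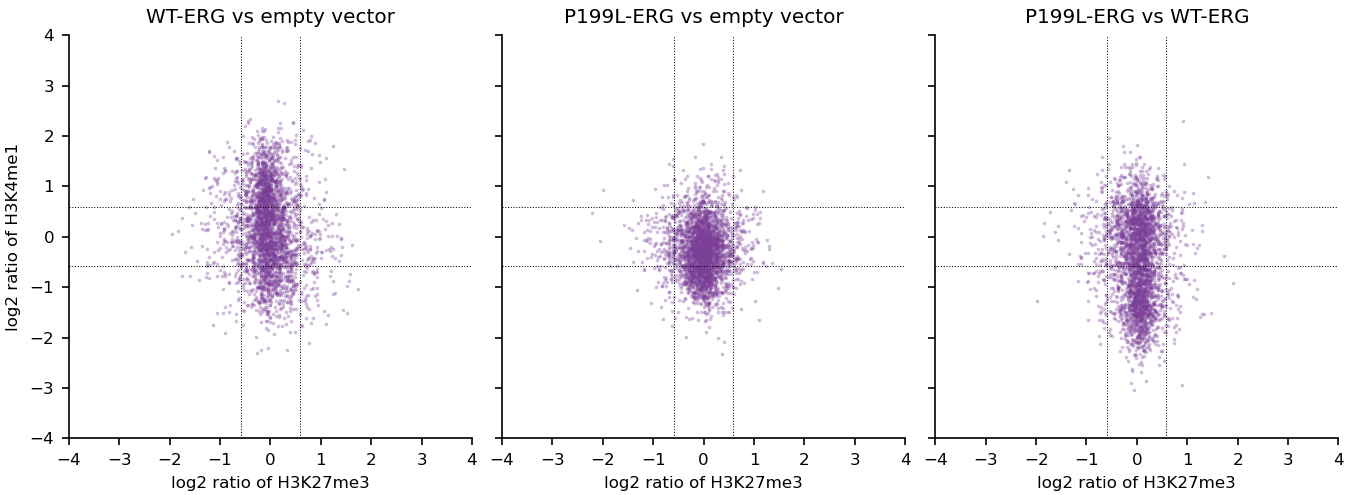
Log2 ratio of H3K4me1 (y axis) against log2 ratio of H3K27me3 (x axis) for each of the 2987 poised regions in the 3 pairs of lines, and dotted lines at 1.5-fold. The clouds are taller than wide and show little slope, with Pearson's r of -0.10, -0.03 and -0.09.

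Genes were assigned to regions by the authors with GREAT, which links a region to up to 2 genes by distance, so a region may be far from its gene and may count for both. By this assignment 2993 genes had at least 1 poised region, 1855 had exactly 1 and 136 had 5 or more. Of the 17553 genes with an H3K4me1 region these 2993 are 17.1%. Developmental transcription factors, the classic targets of Polycomb, had 120 poised regions at 51 of 91 listed genes, which is 59.3% of the 86 with an H3K4me1 region. H3K4me1 between WT-ERG and empty vector was higher at 56 of these and lower at 11 (median log2 ratio 0.52), and between P199L-ERG and WT-ERG it was lower at 80 and higher at 11 (-1.05). After the GC adjustment the medians were 0.32 and -0.21. H3K27me3 had medians of -0.10 and 0.07 in the same pairs, and 1 of the 120 regions touched H3K27ac.

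Hox genes, which specify the body axis and in part drive progenitor growth, had poised regions at 25 of 39 genes (78.1% of the 32 with an H3K4me1 region). Of their 40 regions 24 were higher and 2 lower in H3K4me1 between WT-ERG and empty vector (median 0.74), and 30 were lower and 2 higher between P199L-ERG and WT-ERG (-1.12), with adjusted medians of 0.29 and -0.39. At the start of Hoxc9 (chr15:102976046-102977768) H3K4me1 was 28.9 in P199L-ERG, 91.1 in WT-ERG and 34.9 in empty vector, with log2 ratios of 1.28 (0.79 to 2.0) for WT-ERG over empty vector and -1.52 (-2.31 to -1.04) for P199L-ERG over WT-ERG. These stayed at 1.24 and -1.10 after the GC adjustment. At Hoxc5 the level was 32.6, 99.2 and 52.9, and between Hoxb5 and Hoxb6 it was 68.0, 134 and 88.8. Hoxa9, a partner of Meis1 in leukemia, shared a region with Hoxa7 that had 50.3, 100 and 96.8: there WT-ERG matched empty vector and P199L-ERG was lower (log2 ratio to empty vector -0.89, and -0.47 adjusted).

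Genes of Wnt, BMP, FGF and Hedgehog signaling had 33 regions at 19 of 51 genes (37.3%, all 51 with an H3K4me1 region). Of these regions 15 were higher and 4 lower between WT-ERG and empty vector (median 0.45). Between P199L-ERG and WT-ERG 18 were lower and 3 higher (-0.73). The adjusted medians were 0.26 and -0.08. At the start of Fgf8, a growth factor of the embryo, H3K4me1 was 95, 164 and 119 in P199L-ERG, WT-ERG and empty vector, and the log2 ratio of WT-ERG to empty vector was 0.45 (-0.17 adjusted). Wnt7b differed from this order: its intronic region had 348, 416 and 212, higher in both ERG lines, with log2 ratios of 0.71 for P199L-ERG and 0.96 for WT-ERG over empty vector that the adjustment left at 1.04 and 1.03.

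Tumor suppressors and inhibitors of differentiation under Polycomb had 14 regions at 7 of 15 genes (46.7%): Cdkn2a, Cdkn2b, Trp73, Socs2, Id2, Id3 and Gata5. Between WT-ERG and empty vector 7 were higher and 2 lower (median 0.58), and between P199L-ERG and WT-ERG 9 were lower and 2 higher (-1.13), with adjusted medians of 0.27 and -0.25. Id3, an inhibitor of E-protein transcription factors, had 129 normalized H3K4me1 reads in P199L-ERG, 278 in WT-ERG and 201 in empty vector at its start, under an H3K27me3 domain of 520, 464 and 534. Trp73, a relative of p53, had 40.0, 95.7 and 48.9 at its start, a log2 ratio of WT-ERG to empty vector of 0.91 that was 0.33 after the adjustment. The region assigned to Cdkn2b, which encodes the cyclin-dependent kinase inhibitor p15, had 47.5, 51.9 and 39.9.

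Stem and progenitor genes had 11 regions at 5 of 21 genes (26.3% of the 19 with an H3K4me1 region): Erg, Lmo2, Runx1, Meis1 and Hmga2. The endogenous mouse Erg gene, next to its relative Ets2, had a poised region (chr16:95585206-95586226) within 1 kb of the start of its longest annotated transcript and 55351 bases upstream of the start that GREAT uses. It held 81.0 normalized H3K4me1 reads in P199L-ERG, 191 in WT-ERG and 99.8 in empty vector. The log2 ratio of WT-ERG to empty vector there was 0.91 (0.57 to 1.31), and 0.29 after the GC adjustment. Its H3K27me3 was level, at 171, 167 and 167. Meis1, a homeobox cofactor of stem cells, had a region 147238 bases from its start (chr11:18871250-18872211) with 63.3, 158 and 87.8, and 0.82 (0.45 to 1.25; 0.27 adjusted). Runx1, a master factor of blood formation, had 143, 115 and 170 at a distal region, where WT-ERG was the lowest line (-0.54, and -0.31 adjusted). Over the list 3 regions were higher and 2 lower between WT-ERG and empty vector (median 0.02, and 0.19 adjusted). Between P199L-ERG and WT-ERG 4 were lower and 2 higher (0.13, and 0.01 adjusted).

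Lists of blood lineages varied in the share of their genes with poised regions, which was 17.1% over all genes. The share was 15.0% for the B lymphoid, 20.8% for the T and NK lymphoid and 24.0% for the erythroid and megakaryocyte list. B lymphoid genes had 8 regions at 3 of 20 genes (Pax5, Cd22 and Fcer2a), and T and NK lymphoid genes had 5 regions at 5 of 24 (Gata3, Tcf7, Cd5, Cd6 and Tbx21). Pax5, the factor that commits cells to the B lineage, had 46.6, 113 and 86.8 normalized H3K4me1 reads in P199L-ERG, WT-ERG and empty vector at a region upstream of its start (chr4:44711757-44713927). Its H3K27me3 domain held 185, 124 and 172, lower in WT-ERG than in either other line, with a log2 ratio of 0.56 (0.46 adjusted) for P199L-ERG over WT-ERG. Gata3, a T cell factor, had 82.9, 99.2 and 108 for H3K4me1 near its start, and 561, 515 and 625 for H3K27me3. Erythroid and megakaryocyte genes had 11 regions at 6 of 26 genes (Epor, Slc4a1, Rhd, Gp1bb, Zfpm1 and Fli1), of which 0 were higher and 4 lower between P199L-ERG and empty vector, with a median of -0.43 that the GC adjustment turned to 0.12. A region between Tbx1 and Gp1bb, a platelet glycoprotein, had 64.3, 46.1 and 134, lower in both ERG lines. The list of mast cell, basophil and eosinophil genes had no poised region at any of its 19 genes, of which 18 had an H3K4me1 region.

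Monocyte, macrophage and dendritic genes had 22 regions at 8 of 25 genes (33.3% of the 24 with an H3K4me1 region), among them Irf8, Irf4, Klf4 and Zbtb46. Of the 22 regions 2 were higher and 2 lower between WT-ERG and empty vector, with a median of 0.07 (0.02 adjusted). Irf4, a factor of dendritic cells and macrophages, had a region with 140, 129 and 165 normalized H3K4me1 reads in P199L-ERG, WT-ERG and empty vector. Neutrophil and primary granule genes had poised regions at 2 of 25 genes (8.33% of the 24 with an H3K4me1 region), Mmp9 and Fcnb, 7 regions in all. Between WT-ERG and empty vector 0 of these were higher and 3 lower (median -0.26, and -0.26 adjusted). A region upstream of Mmp9, a matrix metalloproteinase of neutrophil granules, had 101, 85.3 and 142. A distal region of Fcnb, a ficolin of myeloid cells, had 386, 224 and 582, with an H3K27me3 domain of 148, 122 and 166 and H3K27ac of 9.57, 4.11 and 19.5. WT-ERG had the lowest value in each of the 3 marks, but H3K27ac rested on 10, 4 and 17 reads, and the counting interval of P199L-ERG over WT-ERG spanned 0 in H3K27ac (-0.58 to 3.35) and in H3K27me3 (-0.07 to 0.63).

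Endothelial genes, among which ERG is a main regulator in vessels, had 15 regions at 12 of 24 genes (54.5% of the 22 with an H3K4me1 region). Of the 15 regions 4 were higher and 5 lower between WT-ERG and empty vector (median -0.17, and 0.005 adjusted). Sox18, a factor of vessel and lymphatic development, stood out among them with 39.1, 179 and 45.9 normalized H3K4me1 reads in P199L-ERG, WT-ERG and empty vector at its start, and log2 ratios of 1.87 (1.32 adjusted) for WT-ERG over empty vector and -2.08 (-0.98 adjusted) for P199L-ERG over WT-ERG. Its H3K27me3 overlap was thin, at 9.95, 10.8 and 11.4. Neuronal, channel and adhesion genes had 22 regions at 11 of 49 genes (26.8% of the 41 with an H3K4me1 region). Of these regions 5 were higher and 3 lower between WT-ERG and empty vector (median 0.05, and 0.05 adjusted). Between P199L-ERG and WT-ERG 8 were lower and 4 higher (-0.22, and 0.002 adjusted).

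**Figure D4:**
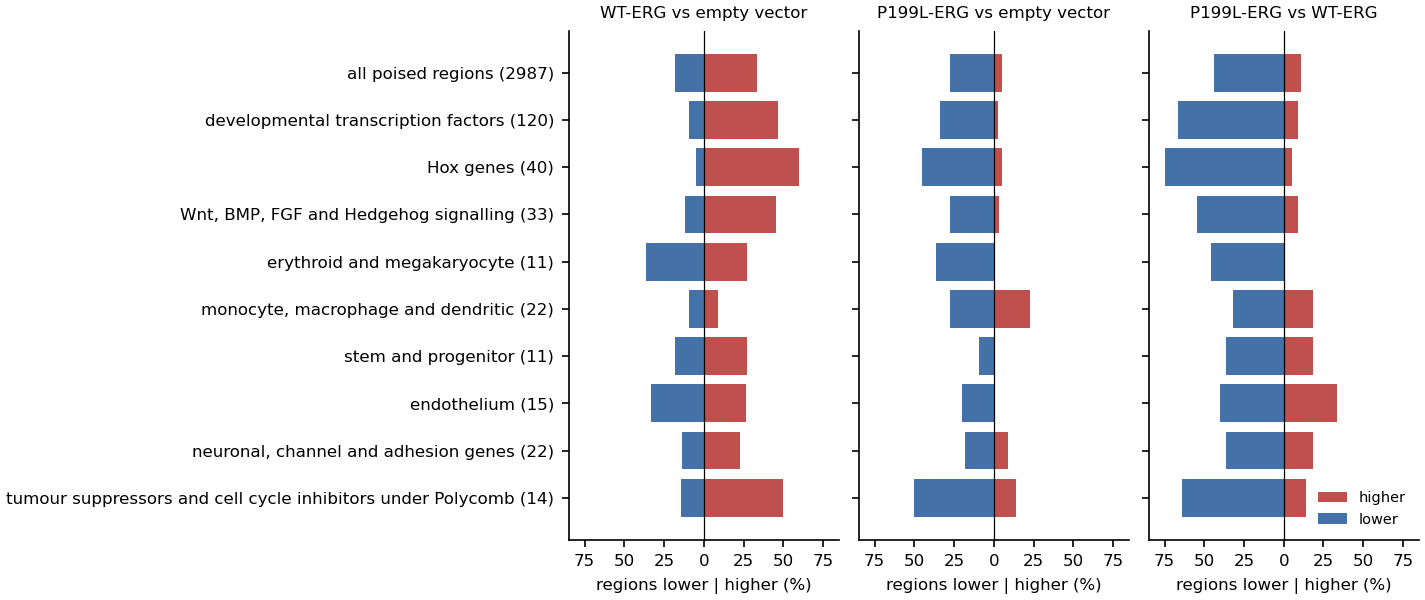
Share of poised regions (x axis, percent) that were at least 1.5-fold higher (right) or lower (left) in H3K4me1 for each pair of lines, over all 2987 poised regions and for the gene lists with 10 or more regions (number in brackets). Developmental transcription factors, Hox genes, signaling genes and tumor suppressors lean to higher in WT-ERG than in empty vector and to lower in P199L-ERG relative to WT-ERG, before the GC adjustment.

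Some genes held many poised regions in the same neighborhood. Sdc1 with its neighbor Laptm4a had 13 poised regions in 5 H3K27me3 regions, with summed H3K4me1 of 1247 normalized reads in P199L-ERG, 1116 in WT-ERG and 1701 in empty vector. Between WT-ERG and empty vector 8 of the 13 were lower and 0 higher, and summed H3K27me3 was 1034, 978 and 879. Kcnn3, a calcium-activated potassium channel, had 11 regions in 9 H3K27me3 regions, with H3K4me1 of 503, 407 and 612: 6 were lower and 1 higher between WT-ERG and empty vector. Both neighborhoods had the least H3K4me1 in the WT-ERG line.

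The opposite order, with the most H3K4me1 in WT-ERG, was seen at some homeobox genes and at genes of other kinds. Tlx1, a factor of spleen development and an oncogene of T cells, had 7 regions in 2 H3K27me3 regions with summed H3K4me1 of 54.9 in P199L-ERG, 178 in WT-ERG and 94.8 in empty vector, and summed H3K27me3 of 1564, 1485 and 1695. Uncx, a homeobox factor of the somites, had 106, 291 and 181 over 7 regions, all of them lower in P199L-ERG against WT-ERG. Nkx2-5, the cardiac homeobox factor, had 369, 542 and 441 over 8 regions. The order was not particular to homeobox genes. Epha2, an ephrin receptor, had 369, 755 and 488 over 7 regions. Polg and Rhcg, which share their 8 regions, had 85.7, 273 and 125, and all 8 were lower in P199L-ERG against WT-ERG. Onecut3, also a homeobox gene, did not share this order, with 585, 746 and 778 over 7 regions. Lbx1, whose stretch of chromosome 19 overlaps that of Tlx1, had the order by a small margin, with 156, 193 and 186 over 8 regions. Between WT-ERG and empty vector 4 of these were higher and 3 lower. None of these sums was adjusted for GC content.

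H3K27ac, the mark of active enhancers, was rare at poised regions, which bears on their label since the rule did not use it. Of the 2987 regions 67 (2.24%) touched an H3K27ac region and 26 (0.870%) an H3K9ac region, and 20 touched both. In the unmarked H3K4me1 regions 16362 (20.3%) touched H3K27ac, and in the 2443 regions with H3K27me3 and H3K4me3 1469 (60.1%) did. H3K27ac was at 10 of 1326 regions (0.754%) whose H3K27me3 region was called in all 3 lines, at 46 of 1080 (4.26%) whose H3K27me3 region was called in 1 line, and at 1 of the 730 CpG-rich regions.

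Where acetylation was found it mostly lay beside the Polycomb mark and not within it. The 67 regions were long, with a median of 3361 bases against 716 in the other poised regions, and had a median of 17.6% of their length inside H3K27me3, against 98.5%. In 52 the H3K27ac and H3K27me3 regions were apart, by a median of 1019 bases, and in 15 they shared bases. Only 3 of the 67, chosen after their values were seen, lay wholly inside H3K27me3: regions of Gng13, Gpx3 and Kcnn3, with 3, 1 and 2 H3K27ac reads in P199L-ERG, 12, 6 and 15 in WT-ERG and 4, 8 and 11 in empty vector. The counting interval of P199L-ERG over WT-ERG lay below 0 at Kcnn3 (-6.18 to -0.91) and Gng13 (-4.57 to -0.21) and spanned 0 at Gpx3 (-8.21 to 0.35), and after the GC adjustment the log2 ratios were -0.98, -0.28 and 0.15.

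The level of H3K27ac in these regions was low, with medians of 8.61 normalized reads in P199L-ERG, 17.5 in WT-ERG and 16.1 in empty vector, on 9, 17 and 14 reads. H3K27ac regions at unmarked H3K4me1 regions had medians of 15.3, 17.5 and 17.2. Between WT-ERG and empty vector 19 of the 67 were higher and 12 lower (median log2 ratio 0.20), against 17.7% higher and 16.6% lower over all H3K27ac regions. Between P199L-ERG and empty vector 10 were higher and 34 lower (-0.59), against 31.8% and 29.6%. Between P199L-ERG and WT-ERG 11 were higher and 37 lower (-0.79), against 33.4% and 31.4%. The H3K27ac regions of these 67 were called in P199L-ERG for 18, in WT-ERG for 51 and in empty vector for 34. Most were thus not called in P199L-ERG, a choice of regions that by itself favors lower values there. With the GC adjustment 14 were higher and 20 lower for P199L-ERG over empty vector, and 8 higher and 16 lower for P199L-ERG over WT-ERG, each with a median of -0.10. Scaling the libraries to their total reads in H3K27ac regions instead would shift log2 ratios without a pseudocount by 0.43 for P199L-ERG over empty vector. The shift would be 0.32 for P199L-ERG over WT-ERG and 0.11 for WT-ERG over empty vector. With the pseudocount the medians of the 67 became -0.24, -0.56 and 0.30 in the same order. On that scale 17 were higher and 21 lower for P199L-ERG over empty vector, so that the direction of single ratios in this mark depends on the scaling.

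**Figure D5:**
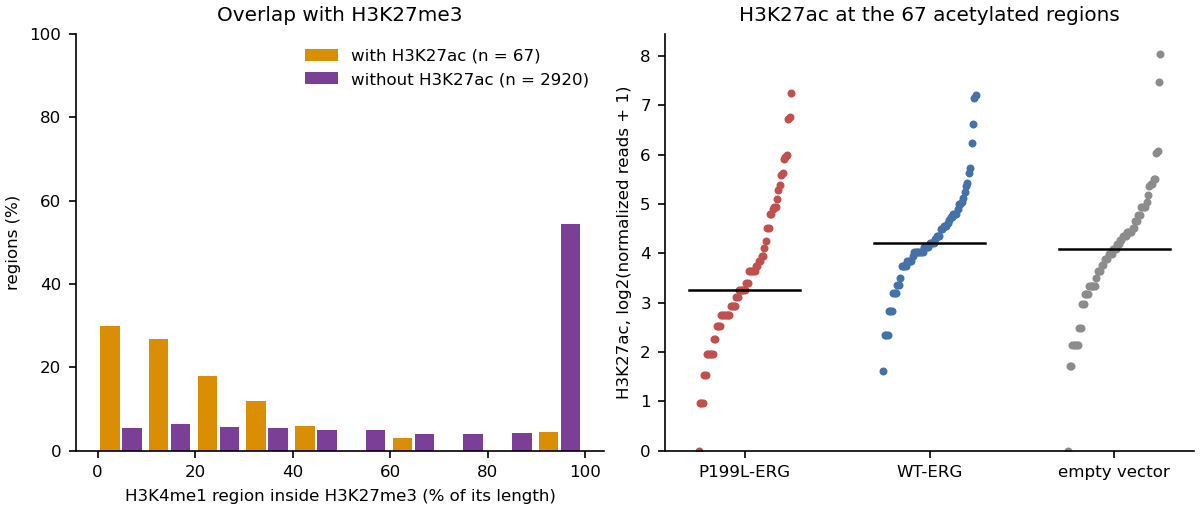
Left, share of poised regions (y axis, percent) by the percentage of their length inside H3K27me3 (x axis), for the 67 with and the 2920 without an H3K27ac region: those with H3K27ac gather at low overlap (median 17.6%) and those without at full overlap (98.5%). Right, H3K27ac of the 67 regions in each line as log2 of normalized reads plus 1, each point a region and the bar the median: 8.61 normalized reads in P199L-ERG, 17.5 in WT-ERG and 16.1 in empty vector.

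The 4 regions with the most H3K27ac in any line, chosen after their values were seen, differed by line in both directions. A region between Dmrtb1 and Glis1 (chr4:107673301-107677541) had 59.3 normalized H3K27ac reads in P199L-ERG, 74.1 in WT-ERG and 264 in empty vector, and its H3K4me1 ran with it at 344, 216 and 735. Both ERG lines were lower, with log2 ratios of H3K27ac of -2.11 (-2.58 to -1.74) for P199L-ERG and -1.81 (-2.24 to -1.45) for WT-ERG over empty vector. H3K27me3 covered 11.5% of it, with 15.5, 21.7 and 13.2. A region between Cyp11a1, the first enzyme of steroid synthesis, and Sema7a, a membrane-anchored semaphorin, had the reverse pattern, with H3K27ac of 108, 142 and 32.2 and H3K4me1 of 806, 762 and 521. Its H3K27ac was higher in both ERG lines (1.68 for P199L-ERG and 2.07 for WT-ERG over empty vector), and H3K27me3 over 4.93% of its length was 9.95, 15.8 and 19.4. A region between Pomgnt2 and Snrk, a kinase related to AMPK, had 105, 148 and 176 normalized H3K27ac reads, with log2 ratios to empty vector of -0.73 (-1.11 to -0.38; -0.81 adjusted) for P199L-ERG and -0.24 (-0.59 to 0.09) for WT-ERG. At the start of Syne1, a nuclear envelope protein, H3K27ac was 151, 97.7 and 66.6, highest in P199L-ERG, with log2 ratios of 1.16 (0.57 adjusted) to empty vector and 0.62 (-0.18 adjusted) to WT-ERG, so that after the GC adjustment P199L-ERG was no longer the highest. A weaker region upstream of Vegfa, the vascular growth factor, named for its decrease in P199L-ERG, had 2.87, 30.9 and 20.7, on 3 reads in P199L-ERG.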

How the data were processed

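ChIP-seq libraries of 5 marks in 3 lines (15 of the 16 samples listed) were compared; the pooled IgG sample was not analysed here. Per the labels, the authors trimmed reads with Cutadapt, aligned them to mm10 with Bowtie and called peaks with MACS2. Peaks of the lines were merged by the authors into 1 table per mark, whose deposited columns hold read counts, normalized reads (a signal, the counts times 1 factor per library) and calls of 0 or 1 in other columns, with genes assigned by GREAT. The basis of the factors and the treatment of duplicates are not given in the sources used here. No value column was left unused (0).

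Regions were intersected at 1 shared base and analysed in Python 3.11.15 with numpy 2.4.6, pandas 2.3.3, scipy 1.17.1 and matplotlib 3.10.9, and the overlaps were checked with bedtools 2.31.1. Log2 ratios used normalized reads plus a pseudocount set to 10% of each mark's median level (4.29 for H3K4me1, 2.67 for H3K27me3, 2.18 for H3K27ac), and a region counted as higher or lower at 1.5-fold. Intervals are exact at 95% on the read counts. The GC adjustment subtracted the median ratio of regions of the mark in 20 groups of GC content by 10 groups of signal, each set of groups with equal numbers of regions. The ratios were tested on simulated counts with known changes, and the intervals were checked only for symmetry at equal counts. With 1 library per mark and line there was no test.

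Named regions were, per pair, the 4 largest increases and 4 largest decreases in H3K4me1 and the 3 of each in H3K27me3 and H3K27ac, among regions whose larger value reached the median of such values, then the 5 with the most H3K27me3 reads and the 3 with the most H3K4me1 in each of 13 gene lists (429 genes); a selection is described. The regions and the lists were chosen with earlier results of these data known. Alternatives are in the closing section. Gene starts, exons and introns are those of the GENCODE annotation of mm10, and coordinates are as the deposited tables give them.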

Additional observations from a re-analysis of the deposited data

How the results depend on the processing

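With 1 library per mark and line no library could be left out and the spread between cultures is unknown. No paired analysis was possible because the samples carry no replicate numbers. Of 72 alternative values of the counts reported, 45 stayed within 1.5 times the reported count. In the order WT-ERG over empty vector, P199L-ERG over empty vector and P199L-ERG over WT-ERG, the poised regions past 1.5-fold were 1551, 994 and 1637 in H3K4me1, 415, 324 and 287 in H3K27me3 and 31, 44 and 48 in H3K27ac. With a pseudocount of 50% of the median they were 894, 326 and 1044 in H3K4me1, 160, 104 and 98 in H3K27me3, and 28 and 20 for P199L-ERG over empty vector and WT-ERG over empty vector in H3K27ac. Without the 25% of regions with the least signal they were 1017 for WT-ERG over empty vector in H3K4me1, 103, 86 and 82 in H3K27me3, and 20 and 31 for WT-ERG over empty vector and P199L-ERG over WT-ERG in H3K27ac. With at least 200 bases of overlap, H3K27me3 gave 266 for WT-ERG over empty vector and 211 for P199L-ERG over empty vector. Limiting H3K27me3 regions to those called in at least 2 lines left 1920 poised regions, with 1010 and 660 changed in H3K4me1 for the first 2 pairs, 51, 61 and 55 in H3K27me3 and 11, 17 and 16 in H3K27ac; fewer regions enter each of these restricted counts. The GC adjustment gave 644 for P199L-ERG over empty vector in H3K4me1 and 24 for P199L-ERG over WT-ERG in H3K27ac. It also moved the split of higher against lower: in H3K4me1 326 and 318 against 162 and 832 for P199L-ERG over empty vector, and 459 and 651 against 329 and 1308 for P199L-ERG over WT-ERG. In H3K27me3 the split for P199L-ERG over WT-ERG was 150 and 105 after the GC adjustment, against 129 and 158. The cause was not tested. Median log2 ratios of H3K4me1 ran from 0.09 to 0.31 for WT-ERG over empty vector, from -0.32 to 0.01 for P199L-ERG over empty vector, where the GC adjustment alone gave a value above 0, and from -0.62 to -0.08 for P199L-ERG over WT-ERG. The median of H3K27me3 was between -0.10 and 0.08 in every pair and alternative. Regions of few reads were the ones most affected by the pseudocount.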

Other observations

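H3K9ac, an acetyl mark of active promoters placed by GCN5 and PCAF, touched 26 of the 2987 poised regions. Its median level at these regions was 13.9 normalized reads in P199L-ERG, 14.3 in WT-ERG and 13.8 in empty vector, and 20 of the 26 also touched H3K27ac. The 2443 H3K4me1 regions with H3K27me3 and H3K4me3, most of which lie at gene starts (69.4% within 1 kb), had median log2 ratios of H3K4me1 of 0.29 for WT-ERG over empty vector, -0.43 for P199L-ERG over empty vector and -0.70 for P199L-ERG over WT-ERG. After the GC adjustment these were 0.17, -0.06 and -0.21. Their median GC content was 56.4%, against 55.2% in the poised regions.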
